A study of Mus musculus with 38 samples.

Results

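The comparison asked how the effect of chronic haloperidol on gene expression in liver differed from its effect in whole brain. It used all 38 arrays of the series, 20 of brain (10 haloperidol, 10 placebo) and 18 of liver (9 haloperidol, 9 placebo), placed in 4 groups by their titles. All animals were C57BL/6J mice, an inbred laboratory strain, bred from founders of the Jackson Laboratory. They carried slow-release pellets for 30 days, with haloperidol in the groups labelled drug and placebo in the others, and the design text gives 1 mouse per array and tissue. The dose, sex and age were not given in the sources used here. Titles also carry a tag of a digit and a letter, and 18 tags occur on both a brain and a liver array. Each of the 18 has the same treatment in both tissues, but the labels do not say what a tag marks.

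Haloperidol is an antipsychotic that blocks dopamine D2 receptors in the brain, binds sigma sites and sterol enzymes in many cells, and is cleared by reductases and cytochrome P450 enzymes of the liver. Brain and liver share the machinery of energy metabolism, protein synthesis and protein breakdown, and each has resident macrophages, microglia in brain and Kupffer cells in liver. Genes of this shared machinery are measured in both tissues, so their response to the drug can be set side by side, while the neuronal targets of the drug are mostly read in brain alone.

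Values are log2 expression values. The brain effect of a gene is the mean of haloperidol minus the mean of placebo arrays in brain, the liver effect is the same in liver, and the difference is the liver effect minus the brain effect. A positive difference means that the gene stood higher with haloperidol in liver than the brain effect would give. Effects were taken within a tissue because the distribution of values differed between tissues by up to 1.42 log2 units, against at most 0.234 between arrays of a tissue. The 10869 genes tested are those above the lowest 33.3% of genes in both tissues, and a gene was called at a limma adjusted p under 0.05 (Benjamini-Hochberg over all of them).

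Tissue markers followed the labels. Snap25, a synaptic protein gene, lay between 12.69 and 12.88 on the brain arrays and between 2.92 and 4.71 on the liver arrays, and the albumin gene Alb between 13.13 and 13.27 in liver. In brain Alb had a median of 4.23 and reached 11.11 on haloperidol 4T, which has no liver array of the same tag. The pituitary hormone gene Gh reached 11.49 on brain placebo 1L against a brain median of 5.15. In these whole tissues fewer cells of a type and less RNA per cell cannot be told apart.

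The effects of haloperidol ran in opposite directions in the 2 tissues for most of the genes that differed. The difference was called for 2502 of 10869 genes (23.0%), positive for 996 (9.16%) and negative for 1506 (13.9%), by limma. Among the 996, 972 had a negative brain and a positive liver effect, and among the 1506, 1443 had a positive brain and a negative liver effect. Opposite signs were thus found in 96.5% of the called genes and in 63.5% of all genes tested. The called genes were chosen for a large difference, which itself favours opposite signs, so the first share is a description. The brain effect was the larger in size for 1962 of the called genes and the liver effect for 540. Called genes had a median difference of 0.48 log2 units in size, made of median sizes of 0.32 in brain and 0.16 in liver, and 73 exceeded 2-fold.

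**Figure D1:**
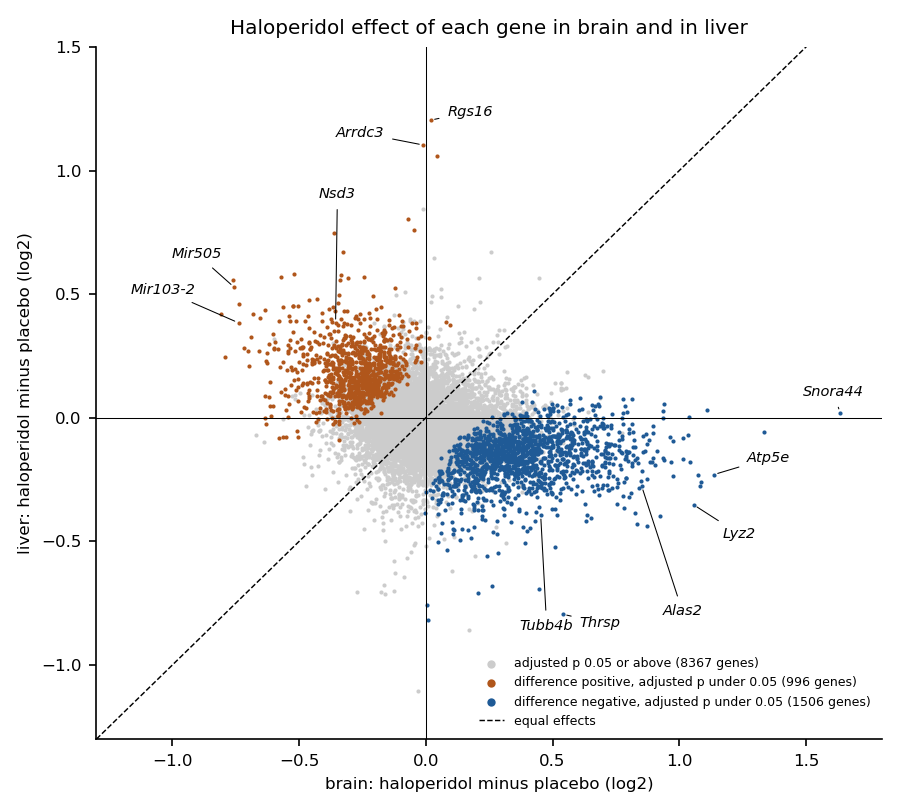
Brain effect (x axis) and liver effect (y axis), both haloperidol minus placebo in log2 units, of the 10869 genes tested. Orange points are the 996 genes with a called positive difference, blue points the 1506 with a called negative difference, grey points the rest, and the dashed line marks equal effects. Called genes lie mostly at the upper left and lower right, where brain and liver effects have opposite signs.

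The liver effect alone was rarely large enough to be called. In the same limma fit 2662 genes were called in brain (24.5%) and 38 in liver (0.350%), and the unadjusted p was under 0.05 for 4031 and 1637 genes. That fit shares a common spread per gene between the tissues, while the median residual SD was 0.171 in brain and 0.217 in liver. With the spread estimated per tissue 0 liver effects were called, so every liver call given below rests on the shared spread. Of the 2502 genes with a called difference, 1821 were called in brain, 33 in liver, 7 in both and 655 in neither. A further 841 genes were called in brain without a called difference. Without brain haloperidol 4N and 4T and brain placebo 1L, 1568 differences were called, 1553 of them among the 2502, and 1144 genes in brain.

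The median over all probes of an array moved in opposite directions in the 2 tissues with treatment, while the mean over the genes tested moved by 0.015 in brain and -0.0208 in liver. The all-probe median lay between 6.266 and 6.401 in placebo brains and between 6.08 and 6.33 in haloperidol brains, with means of 6.33 ± 0.0442 and 6.20 ± 0.0721 (SD, n = 10 each). In liver it lay between 4.695 and 4.91 with placebo and between 4.79 and 5.05 with haloperidol, with means of 4.80 ± 0.0822 and 4.89 ± 0.0897 (SD, n = 9 each). Ranges overlapped in both tissues. Over the 18 tags present in both, liver minus brain was 0.211 higher in haloperidol than in placebo tags (two-sided exact permutation p = 0.000946), while for the median over the genes tested it was -0.0315 (exact permutation p = 0.392).

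How many genes were called, and on which side, depended on that shift. With each array's median subtracted the median difference over all genes moved by -0.22, from -0.01 to -0.23, and 4345 genes were called, 272 positive (2.50%) and 4073 negative (37.5%), with 1778 shared with the 2502. With the array median as a covariate within each tissue 0 genes were called in limma, with 325 at an unadjusted p under 0.05, and with the first principal component 1 gene was called, with 1303 at an unadjusted p under 0.05. Of the 2502 genes, 2289 and 2223 kept the sign of their difference in these fits, at a median size of 0.163 and 0.149. Both covariates differ between the treatment groups, so what they remove and the effect of treatment cannot be told apart. For every gene group below, the part of the shift in the all-probe median in the result was not tested beyond these values.

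Gene span, the distance from a gene's start to its end, ran along with the difference. In the fifth of genes with the shortest span (median 4.13 kb) the median difference was -0.142, with 25.8% called negative and 6.4% positive. In the fifth with the longest span (median 125 kb) it was 0.112, with 3.91% negative and 15.1% positive. The groups between them, by rising span, lay at -0.0803, -0.041 and 0.0357. When the trend on span was removed within each array, 2293 genes were called, 2036 of them among the 2502.

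**Figure D2:**
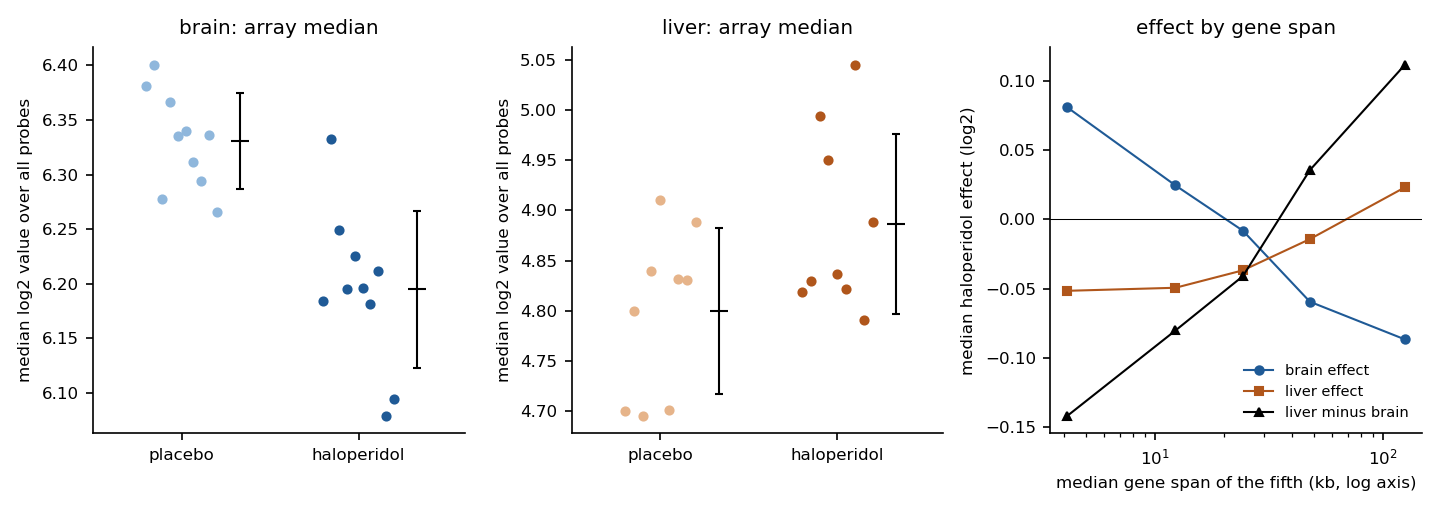
Left and middle: median log2 value over all probes of each array in brain and in liver, by treatment, with mean and SD beside the points. Right: median brain effect, liver effect and difference in 5 equal groups of genes ordered by span (log axis, kb). Haloperidol arrays lie lower in brain and higher in liver on average, and the median difference runs from -0.142 in the shortest to 0.112 in the longest genes.

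Genes of mitochondrial energy conversion had negative differences in nearly all members. The respiratory chain passes electrons through complexes I to IV, and ATP synthase (complex V) uses the proton gradient they build. Of 47 genes of complex I tested, 36 (76.6%) had a called negative difference and 0 a positive one (limma). Among all genes tested 13.9% were called negative and the median was -0.01, against -0.47 over the 47. Their brain effects had a median of 0.31, with 31 called higher (14.3% of all genes tested), and their liver effects a median of -0.15, with 46 of 47 below 0 and 0 called (14 at an unadjusted p under 0.05). Accessory subunits differed most, with 25 of 28 called and a median of -0.60, against 5 of 6 core subunits at -0.29 and 6 of 13 assembly factors at -0.32. Averaged over the 47 genes, complex I stood above the placebo mean on 10 of 10 haloperidol brains and below it on 8 of 9 haloperidol livers.

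Of 52 genes of complexes II to V, 39 had a called negative difference (75%, against 13.9% of all genes tested) and 0 a positive one. Their median was -0.47. All 8 genes of complex III were called, 16 of 22 of ATP synthase, 12 of 18 of complex IV and 3 of 4 of complex II. Atp5e, the epsilon subunit of ATP synthase, ran from 8.71 to 9.75 (median 9.06) in placebo brains and from 9.20 to 11.22 (median 10.58) in haloperidol brains. In liver it ran from 9.47 to 9.95 (median 9.75) with placebo and from 9.21 to 9.80 (median 9.53) with haloperidol. In brain 7 haloperidol arrays exceeded every placebo array, with 4L, 4T and 1R inside the placebo range, and in liver 4 haloperidol arrays lay below every placebo array.

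The brain effect of Atp5e was 1.14 and its liver effect -0.23, a difference of -1.37 (SE 0.28, limma adjusted p = 0.00183). Ndufb8, an accessory subunit of complex I, had effects of 1.07 and -0.23 (difference -1.31, adjusted p = 0.00163 in limma). Ndufa11, another accessory subunit, had 0.72 and -0.14, and 7 of 9 haloperidol livers lay below the lowest placebo liver. Cox4i1, a subunit of complex IV, had 0.68 and -0.11, and Atp5g3, a subunit of the membrane ring of ATP synthase, 0.37 and -0.11. Smim26, a small integral membrane protein gene, had 0.87 and -0.44, with all 10 haloperidol brains above and all 9 haloperidol livers below the placebo mean.

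Mitochondrial ribosomes translate the few proteins encoded in mitochondrial DNA, and import channels bring in the rest. Of 73 mitochondrial ribosomal protein genes 50 had a called negative difference (68.5%, against 13.9% of all genes tested) and 0 a positive one. Their median was -0.51. Mrpl20 of the large subunit had a brain effect of 0.70 and a liver effect of -0.20, and Mrpl11 0.85 and -0.25. Of 30 import genes 17 were called negative (56.7%) and 1 positive (3.33%), with a median of -0.39. Tomm7, a small subunit of the outer membrane channel, had 0.89 and -0.18, and Tomm5, another subunit, 1.09 and -0.26.

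Cytosolic ribosomes and the proteasome, which make and break down proteins, also had negative differences. Of 70 cytosolic ribosomal protein genes 52 had a called negative difference (74.3%, against 13.9% of all genes tested) and 0 a positive one. The 52 were 24 of 27 in the small subunit and 28 of 43 in the large. The median was -0.43, from a brain median of 0.40 with 61 genes called higher and a liver median of -0.05. That liver median stood against -0.03 over all genes tested, and 0 of the 70 liver effects had an unadjusted p under 0.05. Averaged over the 70 genes, 4 haloperidol livers lay above and 5 below the placebo mean. Rps9 of the small subunit ran from 8.93 to 9.78 in placebo brains (median 9.15) and from 9.40 to 10.93 in haloperidol brains (median 10.19), and its liver medians were 9.96 and 9.92. Its brain effect was 0.89 and its liver effect -0.06. Of 43 proteasome genes 30 were called negative (69.8%) and 0 positive, with a median of -0.47, and 12 of the 13 core subunits were among them. Psme1, a subunit of the 11S activator, had effects of 0.63 and -0.13, and Psma2 of the core 0.49 and -0.09.

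The medians of these 6 groups stayed below 0 under the 9 other settings computed for gene groups. They ran from -0.70 to -0.12 for complex I, from -0.73 to -0.11 for mitochondrial ribosomes and from -0.65 to -0.10 for cytosolic ribosomes. The values nearest 0 came from the fit with the first principal component, and in both covariate fits 0 of their genes were called by limma. Without brain haloperidol 4N and 4T and brain placebo 1L, 32 genes of complex I, 43 of mitochondrial ribosomes, 46 of cytosolic ribosomes and 27 of the proteasome had called negative differences. Liver effects with an unadjusted p under 0.05 in limma made up 15.1% of all genes tested. They numbered 14 of 47 for complex I, 6 of 52 for complexes II to V and 9 of 73 for mitochondrial ribosomes. The counts were 6 of 30 for import, 0 of 70 for cytosolic ribosomes and 7 of 43 for the proteasome.

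Promoters of these genes were searched for CCGGAAG, the letters of the core site of ETS family factors, which are known to act at genes of housekeeping function. The search covered both strands (CTTCCGG on the other), without regard to other motifs, from 250 bases before to 50 bases after each gene's start in RefSeq's mouse assembly GRCm38.p6. It occurred in 9.93% of 27025 promoters and in 20.1% of the 8726 promoters of genes tested. It occurred in 42.9% of cytosolic ribosomal protein, 41.7% of proteasome, 39.5% of complex II to V and 35.9% of mitochondrial ribosomal protein promoters, in 16.7% of those of complex I, and in 26.5% of the genes called negative against 19.6% of those called positive. GCGCATGC, the letters of a site of NRF1, a factor known for nuclear genes of mitochondria, was searched the same way (GCATGCGC on the other strand). It occurred in 3.05% of all promoters and in 6.13% of those of genes tested. The share was 18.6% in complex II to V, 12.5% in mitochondrial ribosomal protein, 11.9% in complex I and 8.0% in import promoters. Proteasome promoters held it in 8.33% and cytosolic ribosomal protein promoters in 3.57%. Among genes called negative the share was 7.93%, against 6.69% of those called positive. The 150 bases before the start of 1 gene each of 3 such groups are shown, with CCGGAAG or CTTCCGG in capitals. They were picked among called members that hold the site there, going by the most negative difference, so all 3 match by choice.
Rps21 promoter, small ribosomal subunit, chr2:180257229-180257378, plus strand: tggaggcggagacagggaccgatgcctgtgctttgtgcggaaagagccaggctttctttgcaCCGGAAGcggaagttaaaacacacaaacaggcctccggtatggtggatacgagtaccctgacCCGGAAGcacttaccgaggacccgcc
Atp5e promoter, ATP synthase, chr2:174464102-174464251, minus strand: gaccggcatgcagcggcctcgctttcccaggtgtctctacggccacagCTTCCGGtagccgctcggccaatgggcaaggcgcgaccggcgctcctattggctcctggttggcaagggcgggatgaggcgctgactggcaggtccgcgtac
Pomp promoter, proteasome assembly, chr5:147860478-147860627, plus strand: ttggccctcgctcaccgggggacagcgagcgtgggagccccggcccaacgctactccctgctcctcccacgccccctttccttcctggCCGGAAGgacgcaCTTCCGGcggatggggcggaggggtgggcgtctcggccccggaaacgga
The differences of these genes were -0.85 for Rps21, -1.37 for Atp5e and -0.58 for Pomp. A match describes letters in these windows and was not set against any measure of binding.

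**Figure D3:**
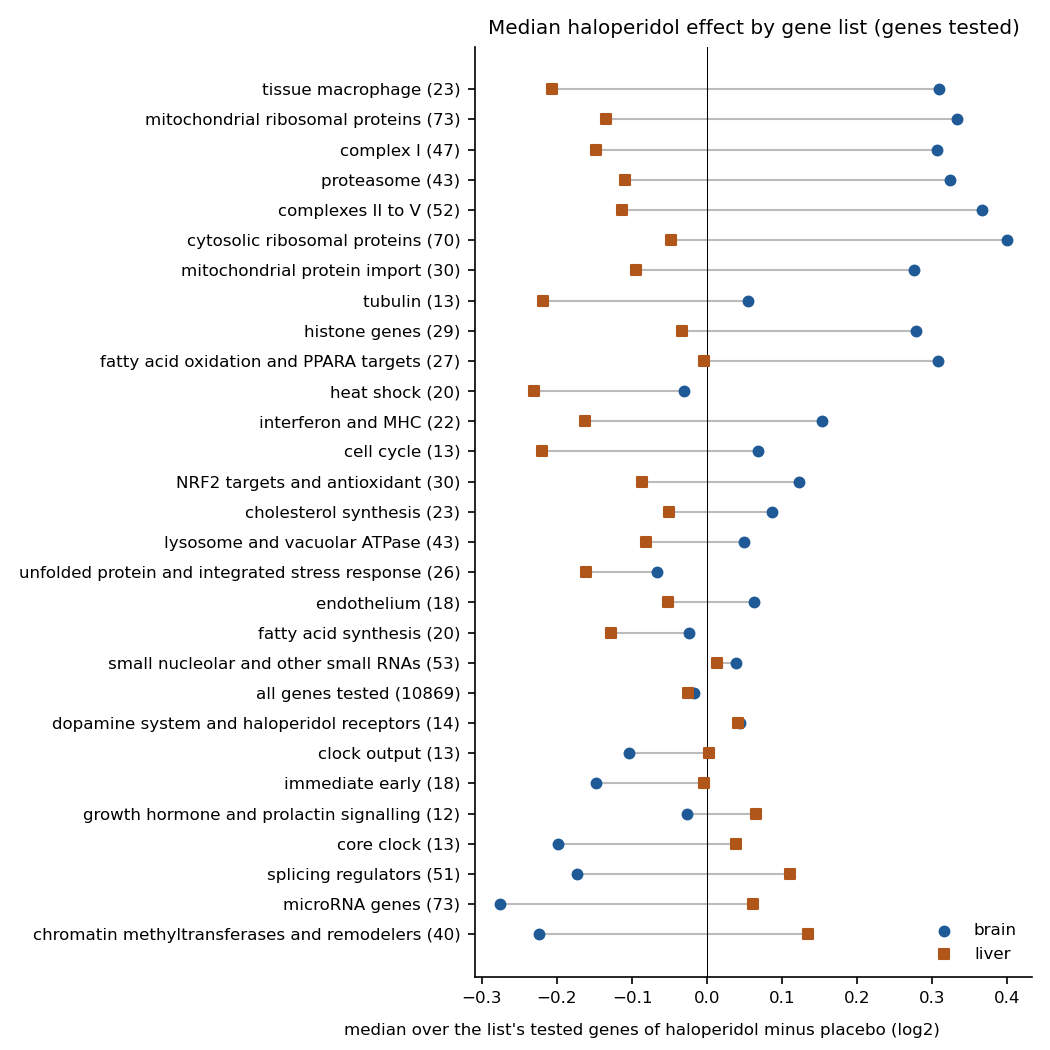
Median brain effect (blue circles) and liver effect (orange squares), haloperidol minus placebo in log2 units, over the tested genes of each group with at least 12, with the number tested in brackets. Groups are ordered by the median difference. Mitochondrial, cytosolic ribosomal, proteasome and macrophage genes have brain medians above 0 and liver medians below 0. The liver median of cytosolic ribosomal proteins is -0.05, against -0.03 over all genes tested. Chromatin, splicing and microRNA genes have brain medians below 0 and liver medians above 0.

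Genes of chromatin and splicing regulators had positive differences. Of 40 histone methyltransferase and chromatin remodeler genes, 23 had a called positive difference and 0 a negative one (limma). The share called positive was 57.5%, against 9.16% of all genes tested, and the median of the 40 was 0.38. Their brain median was -0.22, with 18 genes called lower (10.2% of all genes tested), and their liver median 0.13, with 36 of 40 above 0 and 2 called higher (0.184% of all). Averaged over the 40 genes, the group lay below the placebo mean on 9 of 10 haloperidol brains and above it on 8 of 9 haloperidol livers. With array medians subtracted 12 were called positive and 1 negative, with a median of 0.16, and with the array median as a covariate the median was 0.02.

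Nsd3, a histone H3 lysine methyltransferase gene, ran from 9.75 to 10.30 (median 9.87) in placebo brains and from 9.19 to 9.89 (median 9.56) in haloperidol brains. In liver it ran from 8.79 to 9.52 (median 9.10) with placebo and from 9.14 to 9.80 (median 9.43) with haloperidol. In brain 8 of 10 haloperidol arrays lay below every placebo array, and in liver 3 of 9 lay above every placebo array. Its effects were -0.36 and 0.38, a difference of 0.74 (SE 0.13, limma adjusted p = 0.000859). The remodeler genes Chd6 (-0.34 and 0.49) and Chd2 (-0.33 and 0.40) had the same pattern, and 6 of 9 haloperidol livers lay above every placebo liver for each.

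Of 51 splicing regulator genes 25 had a called positive difference (49%, against 9.16% of all genes tested) and 0 a negative one. The 25 were 10 of 18 SR proteins and 15 of 33 hnRNP and other factors, and the median of the 51 was 0.31. With array medians subtracted 13 were called positive and 4 negative. Pnisr, an SR protein of nuclear speckles, ran from 10.56 to 11.01 in placebo and from 9.63 to 10.73 in haloperidol brains, where 9 of 10 lay below every placebo array. Its effects were -0.56 and 0.45. Clk2, a kinase that phosphorylates SR proteins, had -0.38 and 0.34, and Rbfox2, which binds intronic splicing elements, -0.22 and 0.20. Histone genes, whose short messages mostly lack introns, went the opposite way. Of 29 histone genes 12 were called negative (41.4%, against 13.9% of all genes tested) and 0 positive, with a median of -0.33.

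MicroRNA genes mostly had positive differences. MicroRNAs pair through their seed, bases 2 to 8, with sites in messenger RNAs and lower their output. The sources used here do not say whether these probes read the long primary transcript, the hairpin or the mature form. The list held 71 microRNA genes and 2 host genes, and of the 71, 26 had a called positive difference and 2 a negative one. Among all genes tested 9.16% were called positive and 13.9% negative. Over the list 37 genes were called lower and 2 higher in brain, against 10.2% and 14.3% of all genes tested. The list's median difference was 0.37, from a brain median of -0.28 and a liver median of 0.06. The median was 0.15 with array medians subtracted, with 13 called positive and 3 negative, and -0.03 with the array median as a covariate. It was 0.64 with 51 called positive after the trend on span was removed. That trend was a straight line on log2 span over all genes, and microRNA genes lie at its short end. Whether the line holds there was not tested. Without brain haloperidol 4N and 4T and brain placebo 1L, 10 were called positive and 2 negative.

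The mature sequences of called microRNA genes that shared a seed or had the largest differences are given from RefSeq (GRCm38.p6), with the seed in capitals. RefSeq held mature sequences for 25 of the 29 called members.
miR-103-3p of Mir103-2, chr2:131288103-131288125, plus strand: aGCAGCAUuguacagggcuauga
miR-107-3p of Mir107, chr19:34820700-34820722, minus strand: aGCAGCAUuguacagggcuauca
let-7d-5p of Mirlet7d, chr13:48536078-48536099, minus strand: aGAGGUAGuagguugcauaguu
let-7e-5p of Mirlet7e, chr17:17830366-17830387, plus strand: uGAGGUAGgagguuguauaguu
miR-680 of Mir680-2, chrX:144297790-144297810, plus strand: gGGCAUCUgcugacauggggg
miR-505-3p of Mir505, chrX:60394416-60394437, minus strand: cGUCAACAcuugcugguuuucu
miR-30e-5p of Mir30e, chr4:120772660-120772681, minus strand: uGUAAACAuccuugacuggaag
Mir103-2 and Mir107 share the seed GCAGCAU, Mirlet7d and Mirlet7e the seed GAGGUAG, and the 3 loci Mir680-1, Mir680-2 and Mir680-3 give the same mature sequence. Probes of near-identical loci may read each other's RNA.

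Mir505 ran from 8.46 to 9.51 (median 8.68) in placebo and from 6.99 to 8.67 (median 7.96) in haloperidol brains, where 7 of 10 lay below every placebo array. Liver values lay between 9.63 and 11.11 (median 10.67) with placebo and from 10.47 to 11.57 (median 10.99) with haloperidol, where 4 of 9 lay above every placebo array. Its effects were -0.76 and 0.53, a difference of 1.28 (SE 0.27, limma adjusted p = 0.00214). Mir103-2 had effects of -0.74 and 0.38, with 9 of 10 haloperidol brains below every placebo array and 1R within the placebo range, and Mir107 had -0.36 and 0.75. The let-7 genes had differences of 0.61 (Mirlet7d) and 0.68 (Mirlet7e), and the Mir680 loci 0.81, 0.98 and 0.74. Mir30e had effects of -0.74 and 0.46, and its difference of 1.20 became -0.02 with the array median as a covariate. The limits below which genes were left out as dim were 5.52 in brain and 3.92 in liver. The means of Mir30e and Mir103-2 lay below them in haloperidol brains and placebo livers, and that of Mir107 in haloperidol brains, so these genes passed the filter there through the group where they were higher. The same held in at least 1 tissue for 5 of the 29 called genes of the list, against 30 of the 2502 called genes in all.

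Many microRNA genes lie within protein-coding genes. Of the called microRNA genes 7 lie inside a tested protein-coding gene. Of the 7 surrounding genes 0 had a called difference by limma, against 23.0% of all genes tested, and 2 an unadjusted p under 0.05, against 36.5%. The 2 were R3hdm1 (0.37) around Mir128-1 (0.74) and Spaca6 (0.48) around Mirlet7e (0.68). With 7 genes these counts are too small to be told apart from the shares of all genes. Mir103-2 lies in Pank2, a pantothenate kinase gene with a difference of -0.10, Mir107 in its relative Pank1 (0.09), and Mir30e in Nfyc (0.17), a subunit of a CCAAT-binding factor. Chromosome 12 held 13 tested microRNA genes, of which 9 had a called positive difference, against 9.16% of all genes tested. Between Mir673 and Mir668 (chr12:109571990-109734797 in GRCm38.p6) 6 of 9 were called positive, with Mir134 at 0.73 and Mir540 at 0.67. This stretch was singled out after its values were seen.

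**Figure D4:**
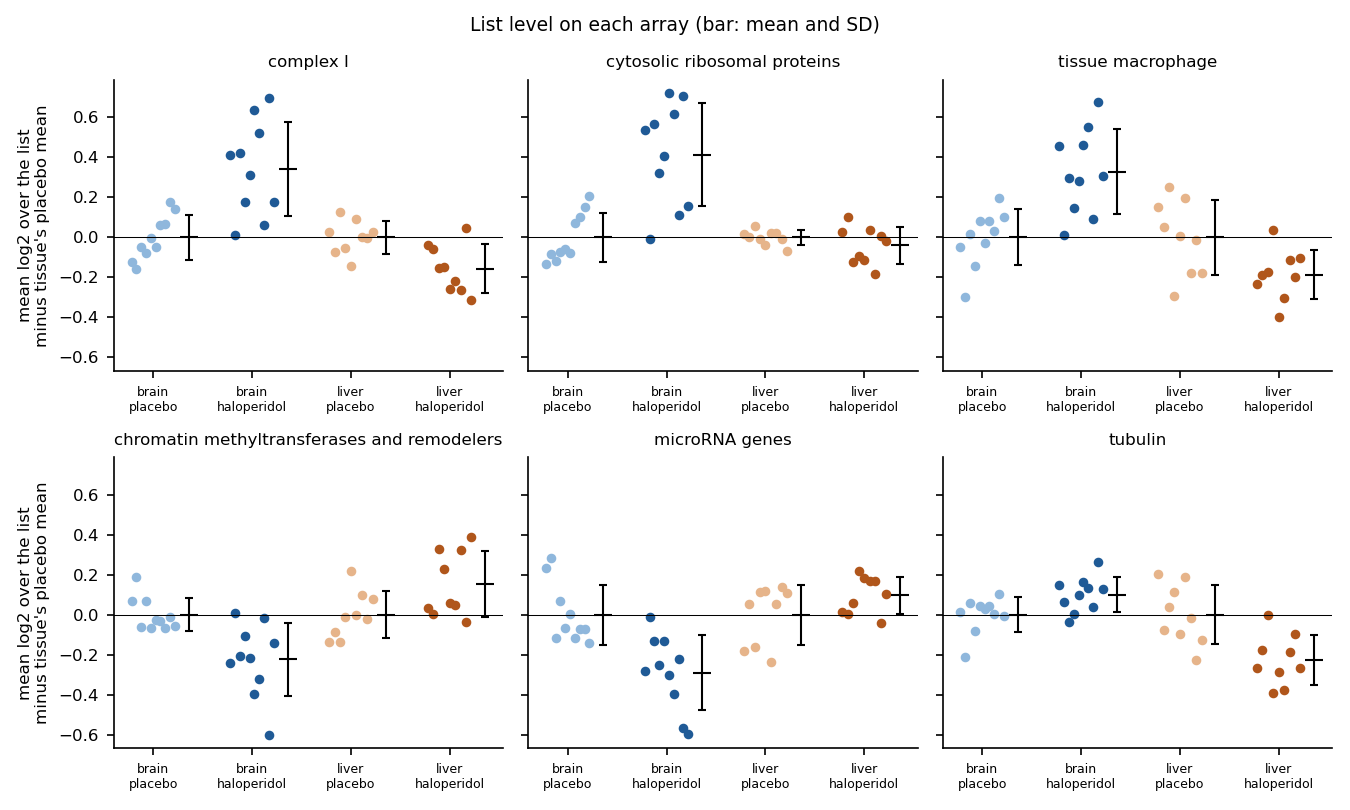
Mean log2 level of 6 gene groups on each array, relative to the placebo mean of the same tissue, with the mean and SD of each treatment group beside its points. Haloperidol brains lie above and haloperidol livers below 0 on average for complex I, cytosolic ribosomal proteins, tissue macrophage and tubulin genes, and the reverse holds for chromatin and microRNA genes; placebo and haloperidol arrays overlap in every panel.

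Markers of resident macrophages also had negative differences. Of 23 such genes tested 11 were called negative (47.8%, against 13.9% of all genes tested) and 0 positive (limma). All 3 genes of complement C1q were among the 11. The median difference of the 23 was -0.54, from a brain median of 0.31 with 11 called higher (14.3% of all genes tested). Their liver median was -0.21 with 0 called (12 at an unadjusted p under 0.05). Averaged over the 23 genes, the group ranged from 0.01 to 0.68 above the placebo mean on haloperidol brains and from 0.40 below to 0.04 above it on haloperidol livers. The median ran from -0.76 to -0.21 under the other settings. The part of cell number in this was not tested. Among markers of other cell types 2 of 3 oligodendrocyte and 1 of 18 endothelial genes were called negative, and 0 of 5 astrocyte and 0 of 2 neutrophil genes were called (0 and 1 at an unadjusted p under 0.05).

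Lyz2, a lysozyme gene expressed by macrophages and neutrophils, ran from 6.52 to 7.58 (median 6.90) in placebo and from 6.82 to 8.99 (median 8.18) in haloperidol brains. Its liver values ran from 8.60 to 9.71 (median 9.20) with placebo and from 8.35 to 9.32 (median 8.96) with haloperidol. The difference was -1.41 (SE 0.31, limma adjusted p = 0.00247), from 1.06 in brain, where 6 of 10 haloperidol arrays exceeded every placebo array, and -0.35 in liver, where 1 of 9 lay below. Tyrobp, an adaptor of myeloid receptors, had effects of 0.75 and -0.35, Fcer1g, a shared chain of Fc receptors, 0.47 and -0.24, and C1qa 0.30 and -0.30. Csf1r, the receptor that macrophages need to survive, had -0.01 and -0.23 and no called difference (adjusted p = 0.2 in limma).

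Alas2, which starts haem synthesis in red cell precursors, had the smallest adjusted p of all genes. It ran from 6.31 to 7.29 (median 6.99) in placebo brains and from 7.46 to 8.13 (median 7.78) in haloperidol brains, without overlap. In liver it ran from 9.13 to 9.47 (median 9.36) with placebo and from 8.88 to 9.32 (median 9.01) with haloperidol, where 6 of 9 lay below every placebo array. The effects were 0.85 and -0.28 and the difference -1.13 (SE 0.14, limma adjusted p = 5.06e-06). It was the gene still called with the first principal component as a covariate (-0.86, adjusted p = 0.0138), and its value with the array median as a covariate was -0.95 (adjusted p = 0.0971). The other 2 erythroid markers tested had no called difference, at -0.29 and -0.21. All 3 were called higher in brain, against 14.3% of all genes tested, and had an unadjusted limma p under 0.05 for the difference. Averaged over the 3 genes, 10 of 10 haloperidol brains lay above the placebo mean.

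**Figure D5:**
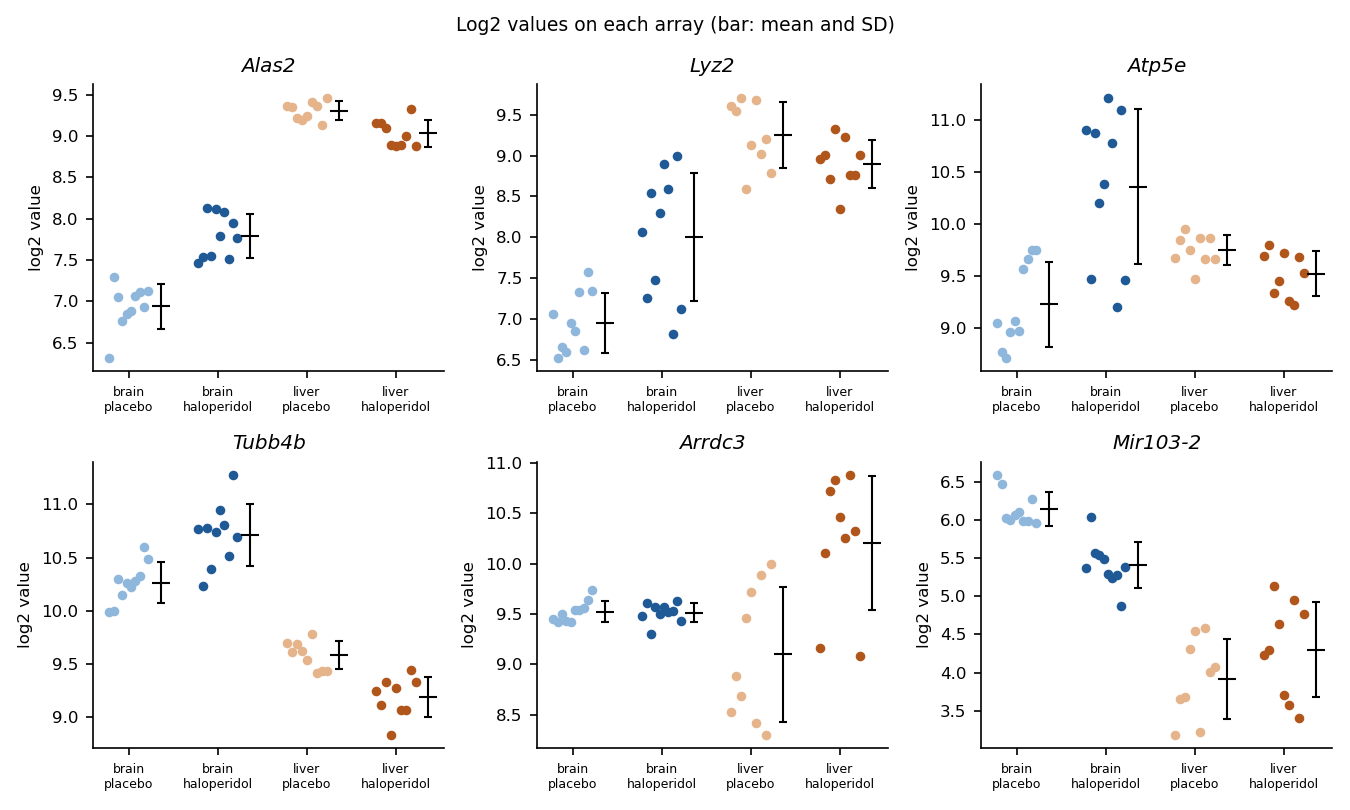
Log2 values of 6 genes on each of the 38 arrays by tissue and treatment, with the mean and SD of each group beside its points. Alas2 separates haloperidol from placebo brains without overlap, Tubb4b lies higher in haloperidol brains and lower in haloperidol livers, Arrdc3 lies higher in haloperidol livers, and Mir103-2 lies lower in haloperidol brains.

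Tubulin genes, which encode the subunits of microtubules, had a liver median larger in size than the brain median. Of 13 genes 5 were called negative (38.5%, against 13.9% of all genes tested) and 1 positive (limma). The median was -0.36, from 0.05 in brain and -0.22 in liver, where 12 of 13 effects were below 0. Averaged over them, all 9 haloperidol livers lay below the placebo mean, by 0.39 at most. Tubb4b, a beta-tubulin gene, ran from 9.98 to 10.60 in placebo and from 10.23 to 11.28 in haloperidol brains, and from 9.41 to 9.78 in placebo and from 8.82 to 9.44 in haloperidol livers. In brain 7 of 10 haloperidol arrays exceeded every placebo array, and in liver 8 of 9 lay below every placebo array.

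The effects of Tubb4b were 0.45 and -0.39, a difference of -0.85 (SE 0.14, limma adjusted p = 0.000595). Tuba1b, an alpha-tubulin gene, had 0.14 in brain and -0.38 in liver, where it was called (adjusted p = 0.0112 in limma, against 0.166% of all genes called lower in liver), and 8 of 9 haloperidol livers lay below every placebo liver. Tuba1a, the alpha-tubulin of neurons, had 0.36 and -0.21.

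Cell cycle, heat shock and secretory stress genes had negative liver effects in nearly all members, against 6250 of all 10869 genes tested, and 1 of these liver effects was called by limma, in the unfolded protein and integrated stress list. All 13 cell cycle genes tested had a negative liver effect, with a median of -0.22, and 5 had a called negative difference (38.5%, against 13.9% of all genes). Pcna, the sliding clamp of DNA replication, had effects of 0.45 and -0.26. Of 20 heat shock genes 19 had a negative liver effect and 4 a called negative difference, a share of 20% that is near that of all genes, among them Hspe1, the mitochondrial co-chaperonin, with 0.74 and -0.23. Of 26 genes of the unfolded protein and integrated stress responses 24 had a negative liver effect and 3 a called negative difference, a smaller share than the 13.9% of all genes tested. The liver effects of these 3 groups had an unadjusted p under 0.05 in 8, 14 and 10 genes.

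Asns, the asparagine synthetase gene and a target of ATF4, was at 10.95 and 10.89 (medians, placebo and haloperidol) in brain and at 5.64 and 5.10 in liver. Its liver effect of -0.82 was called (limma adjusted p = 0.0391), its brain effect was 0.01, and the difference of -0.83 had an adjusted p of 0.0222, or 0.0633 without the 3 brain arrays named above. Dnajb9, a chaperone of the endoplasmic reticulum, had 0.39 and -0.51, and Manf, a secreted stress factor, 0.11 and -0.45. Ostc, a subunit of the enzyme that attaches N-glycans, ran from 9.00 to 9.47 in placebo and from 9.35 to 10.02 in haloperidol brains, and from 8.93 to 9.38 in placebo and from 8.40 to 9.25 in haloperidol livers. Its effects were 0.51 and -0.37 (difference -0.88, limma adjusted p = 0.000595), and Odc1, which starts polyamine synthesis, had 0.38 and -0.44.

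Of the 38 genes called in liver, 33 also had a called difference, and 7 of these were called in brain with the opposite sign. Among all genes tested 23.0% had a called difference and 24.5% a called brain effect. Chd6, Nsd3, Mapk1ip1 and Zfp866 were lower in brain and higher in liver. Mettl1, a tRNA methyltransferase gene, Nans, which makes sialic acid, and Reep5, which shapes the endoplasmic reticulum, were higher in brain and lower in liver. Mapk1ip1 ran from 8.73 to 9.12 in placebo and from 8.15 to 9.05 in haloperidol brains, and from 6.20 to 6.78 in placebo and from 6.71 to 7.09 in haloperidol livers, where 7 of 9 lay above every placebo array. Effects were -0.31 and 0.38 for Mapk1ip1, -0.23 and 0.34 for Zfp866, 0.28 and -0.47 for Mettl1, 0.26 and -0.46 for Nans, and 0.24 and -0.33 for Reep5. The count of 38 ranged from 5 without liver haloperidol 2N to 213 without liver haloperidol 4L, and was 0 with the spread estimated per tissue.

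Several genes called in liver had a brain effect near 0. Arrdc3, an arrestin-domain gene, lay between 9.42 and 9.74 in placebo brains and between 9.30 and 9.63 in haloperidol brains. In liver it ran from 8.30 to 10.00 (median 8.88) with placebo and from 9.08 to 10.88 (median 10.32) with haloperidol, where 7 of 9 lay above every placebo array and 4N and 1B lay within the placebo range. Its effects were -0.01 and 1.10, a difference of 1.11 (SE 0.28, limma adjusted p = 0.00517). Abcd2, a peroxisomal fatty acid transporter, had 0.04 and 1.06, Lgals4, a galectin, -0.07 and 0.80, and Rcan1, a regulator of calcineurin, 0.00 and -0.76. Slc23a2, a vitamin C transporter, was called in liver too, with effects of -0.19 (limma adjusted p in brain = 0.0617) and 0.40, with 6 of 10 haloperidol brains below every placebo brain and 8 of 9 haloperidol livers above every placebo liver.

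Rgs16, an inhibitor of G protein signalling, had effects of 0.02 and 1.20. In liver it ran from 4.96 to 8.62 with placebo and from 6.89 to 9.80 with haloperidol. The difference of 1.19 (SE 0.43, limma adjusted p = 0.04) lost its call in 17 of 38 fits that left out 1 array, at most at 0.0727 without liver placebo 3N. Thrsp, a lipogenic gene of liver, ran from 6.90 to 7.93 in placebo and from 7.49 to 8.76 in haloperidol brains, and from 10.04 to 12.22 in placebo and from 9.20 to 11.06 in haloperidol livers. Its effects were 0.54 and -0.79 (difference -1.33, adjusted p = 0.00565 in limma), but 18 of the other 19 genes of its fatty acid synthesis list had no called difference, Me1 (0.32 and -0.32) being the exception.

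Small noncoding RNAs had called differences in both directions, the negative ones at a share below that of all genes tested. Of 53 small nucleolar and other small RNA genes 11 were called positive (20.8%, against 9.16% of all genes tested) and 5 negative (9.43%, against 13.9%). Snora44 had the most negative difference among the called genes, -1.61 (SE 0.33, limma adjusted p = 0.00198). It ran from 7.999 to 9.504 (median 8.63) in placebo and from 8.81 to 11.24 (median 10.64) in haloperidol brains, where 9 of 10 exceeded every placebo array, and its liver medians were 10.87 and 10.96. The vault RNA gene Vaultrc5 had 1.33 and -0.06, with medians of 5.142 and 6.499 in brain, and its placebo level there was below the limit of 5.52 for dim genes, so that it passed the filter through its haloperidol values. Snord14e had effects of -0.81 and 0.42.

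Fatty acid oxidation and antioxidant genes had more called negative differences than the 13.9% of all genes tested, and lysosomal genes were near that share. Of 27 oxidation genes 13 were called negative and 0 positive, and all 13 were among 22 enzyme genes, whose brain median was 0.36 and whose liver median was -0.03. Etfb, which passes electrons from fatty acid oxidation to the respiratory chain, had 0.45 and -0.09. Of 30 antioxidant genes 12 were called negative, among them Cbr1, a carbonyl reductase of the class that reduces haloperidol, with 0.71 and -0.14, and Gpx4, which reduces lipid peroxides, with 0.82 and -0.17. Of 43 lysosomal genes 8 were called negative (18.6%), 6 of them among 17 of the vacuolar proton pump, such as Atp6v1f with 0.66 and -0.21.

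Effects of the same sign in both tissues were rare. At an unadjusted p under 0.05 in both tissues 581 genes had effects, 71 of the same sign and 510 of opposite sign, and at 0.01 the counts were 5 and 101. The 5 were Gstt2, a glutathione transferase gene, with effects of 0.31 in brain and 0.36 in liver, and Ttc13 (-0.18 and -0.19), Cstf2 (-0.17 and -0.20), Fam234b (-0.24 and -0.25) and Unc13b (-0.23 and -0.29). All 5 were called in brain and 0 in liver by limma, and their differences, from -0.06 to 0.05, had standard errors of 0.09 to 0.15. Cstf2, a factor of messenger RNA 3' end formation, ran from 9.45 to 9.71 in placebo and from 9.22 to 9.58 in haloperidol brains, and from 6.597 to 6.979 in placebo and from 6.32 to 6.72 in haloperidol livers.

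Genes of the drug's own targets and of its clearance that were tested in both tissues were few, and their counts stand against 13.9% called negative and 9.16% positive among all genes tested. Of 14 dopamine system and receptor genes tested 3 were called negative (21.4%) and 0 positive, and 0 of the 4 receptor genes were among them. The median was 0.01, and its sign changed under 6 of the 9 other settings. Maoa, which breaks down dopamine and other amines, ran from 7.25 to 8.08 in placebo and from 7.82 to 8.69 in haloperidol brains, with liver medians of 6.20 and 5.88. Its effects were 0.44 and -0.28 (difference -0.72, limma adjusted p = 0.00745). Among 4 sigma and sterol sites that bind haloperidol, Pgrmc1 was called (0.29 and -0.06), and Tmem97, the sigma-2 receptor gene, had 0.19 and -0.19 (adjusted p = 0.0921 in limma). Of 7 drug metabolism genes tested Cbr1 was called negative and Arnt, the partner of the dioxin receptor, positive (-0.45 and 0.14).

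Counts for clock, immediate early and growth hormone pathway genes stand against 9.16% called positive and 13.9% negative among all genes tested. Of 13 core clock genes 2 were called positive (15.4%) and 0 negative, with a median of 0.25, and this median was 0.03 with array medians subtracted. Arntl2, a partner of CLOCK, had -0.43 in brain and 0.09 in liver. Per2 had -0.45 and -0.20 and Arntl -0.31 and 0.11, with standard errors of the difference of 0.30 and 0.38. Liver values of both ranged widely, from 6.51 to 9.03 for Per2 with placebo and from 4.85 to 8.19 for Arntl with haloperidol. Of 18 immediate early genes and 12 genes of growth hormone and prolactin signalling 0 were called in limma, with 0 and 3 at an unadjusted p under 0.05 and smallest adjusted p of 0.137 (Fosl2) and 0.059 (Stat3). Of 22 interferon and MHC genes 5 were called negative (22.7%) and 2 positive (9.09%), and of 23 cholesterol synthesis genes 1 was called negative (4.35%).

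Some genes were measured well in a single tissue and were not part of the fit. Nts, the neurotensin gene, ran from 5.93 to 6.78 (median 6.32) in placebo and from 6.602 to 8.697 (median 7.64) in haloperidol brains, and stayed between 2.44 and 3.11 in liver, below the limit of 3.92 there. Rhbg, an ammonia channel gene of perivenous hepatocytes, ran from 7.40 to 7.88 in placebo and from 6.602 to 7.656 in haloperidol livers, and lay between 3.89 and 4.78 in brain, below the limit of 5.52.

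Single genes were also compared without a model of the spread, by liver minus brain within each tag. Of 21 such genes, 17 were tested in both tissues, and 11 of these had a two-sided exact permutation p that stayed under 0.05 after Benjamini-Hochberg adjustment over the 21. The 21 were chosen by name with earlier results of these data known, and the arrays are among those of the limma fit. The count is thus a description and not an independent check. Nts and Rhbg passed as well (exact p = 0.000452 and 0.000535), but each lay below the limit in 1 tissue, so no size is given for liver minus brain. For Alas2 liver minus brain was lower by -1.12 in the 9 haloperidol than in the 9 placebo tags (exact p = 4.11e-05, the smallest this design allows, adjusted 0.000576), with 9 of 9 tags below the placebo mean. Tuba1b (-0.54) and Slc23a2 (0.60) had an exact p of 8.23e-05, Tubb4b -0.85 with 0.000165 and C1qa -0.60 with 0.000329. Ndufb8 stood below in 8 of 9 haloperidol tags (-1.36, exact p = 0.0016) and Tomm5 in 7 of 9 (-1.42, exact p = 0.00658). Csf1r (exact p = 0.143), Tmem97 (0.0865), Arntl (0.294), Per2 (0.376), Sort1 (0.856) and the tissue markers Snap25 (0.468), Alb (0.279) and Gh (0.482) did not pass.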

How the data were processed

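Expression was measured with Affymetrix arrays in snap-frozen, pulverized whole brain and liver. The values the authors deposited are on a log2 scale. Per the submitters' processing notes they come from RMA, run in Affymetrix Expression Console, both without a version. RMA sets arrays to a common distribution and summarises probe sets, so a change in total RNA is not visible. The tissues differed in distribution and appeared to have been normalized apart. The array model and signal over background were not given in the sources used here, and the number of arrays limits the precision.

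Of 35556 probes 21218 had 1 gene symbol in GEO's platform annotation, and for the 18820 genes the probe of highest mean was used. Genes in the lowest 33.3% of either tissue (below 5.52 in brain or 3.92 in liver) were left out. The 4 groups were fitted together with limma 3.58.1 in R 4.3.3, with the difference of effects as a contrast and Benjamini-Hochberg adjustment over 10869 genes. Tables, motifs and figures were made in Python 3.11.15 with pandas 2.3.3, and sequences came from RefSeq (GRCm38.p6). In a simulation of 10869 genes, differences of 0.25, 0.5 and 1 log2 unit were put into 67, 67 and 66 genes. The fit recovered 13.4%, 50.7% and 95.5% of them, with 9 false calls. Noise was drawn independently for each gene and array, so false calls under a shift shared by a whole array were not tested.

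Gene lists, members and tests were chosen with earlier results of these data known. Genes named are the 10 largest differences per direction, up to 3 called members per list, up to 5 genes per direction with opposite or same effects, and a set chosen by name, with further list members and genes called in liver given as values after their values were seen. Alternatives covered the filter, scaling, covariates, blocks, spread estimate, probe choice and each array left out. Same-tag arrays of the 2 tissues correlated between -0.318 and 0.249 (median 0.00114, over 0.1 in 5 of 18 pairs), so tags were not taken as pairs, and p-values within tags assume exchangeable tags. Dbp is not analysed here.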

Additional observations from a re-analysis of the deposited data

Results flagged for a closer look

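The difference between the tissues was itself a test of the interaction of drug and tissue, and 2502 genes passed it, 996 with a positive and 1506 with a negative difference. Of these, 7 had called effects of opposite sign in both tissues. In liver 38 genes were called, and in brain 24.5% of all genes tested. The liver calls of the 7 rest on the spread shared by the tissues, as 0 liver effects were called with the spread estimated per tissue. The differences of the 7 genes were 0.836 for Chd6, 0.739 for Nsd3, 0.69 for Mapk1ip1, 0.567 for Zfp866, -0.753 for Mettl1, -0.724 for Nans and -0.571 for Reep5.

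Single arrays stood apart from their group by Dixon's criterion in 14 of 208 groups looked at, over 51 genes and the array median; chance gives about 1 in 20 groups. In brain, placebo 1N was highest for Mir505 (9.513, the others at 8.46 to 8.948) and Nsd3 (10.3) and lowest for Sort1 (10.71) and Csf1r (8.435). Brain placebo 4R was lowest for Mir30e (5.483) and Arntl (7.899) and highest for Nme6 (7.648). Brain haloperidol 4T was highest for Alb (11.11, the others at 3.931 to 4.446) and brain placebo 1L for Gh (11.49, the others at 4.694 to 8.281). In liver, placebo 3L was lowest for Ndufb8 (8.952), placebo 2B lowest for Tmem97 (10.16), placebo 3N highest for Ttc13 (7.889) and placebo 1N highest for Gh (4.636). Liver haloperidol 4N was lowest for Cstf2 (6.315).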

How the results depend on the processing

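The counts moved most with the treatment of the array median, and the cause of the changes below was not tested. With array medians subtracted 4345 differences were called, 272 positive and 4073 negative, and 238 liver effects. With the array median as a covariate 0 differences were called (0 positive, 0 negative), 0 brain effects and 1 liver effect. With the first principal component the counts were 1 difference (0 positive, 1 negative), 1 brain effect and 192 liver effects. Without brain haloperidol 4N and 4T and brain placebo 1L they were 1568 differences (580 positive, 988 negative) and 1144 brain effects. Liver effects called were 77 with quantile normalization within tissues, 90 with the tag digit as a block, 80 with array weights (4325 brain effects) and 0 with the spread estimated per tissue in limma. The tag as a replicate block gave 1752 differences, 1708 of them among the 2502, and 8 named genes lost their call. Whether a tag is 1 mouse is not given by the labels. Called differences were positive in 39.8% by the main analysis, 6.26% with medians subtracted, 34.6% and 33.2% after quantile normalization and 47.7% with array weights. The array median taken over the genes tested gave -0.0315.

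Leaving out 1 array gave 1924 to 3001 differences (732 to 1245 positive, 1192 to 1756 negative) and 1661 (without brain haloperidol 4N) to 3324 brain effects. Liver effects called ranged from 5 to 213: 20, 25, 25, 21 and 19 without placebo 1L, 1T, 3N, 4B and 4R, 128 without placebo 3L, 5, 21 and 8 without haloperidol 2N, 3B and 3R, and 76, 213 and 98 without haloperidol 2T, 4L and 4N. Of the named genes 103 neither lost a call nor changed sign in these fits, and 6 lost it in some, namely Csnk1e, Cdh5, Zfp931, Rgs16, Tm7sf2 and Ccne1. Signs changed for differences near 0, with ranges of -0.0127 to 0.109 for Gstt2, -0.0424 to 0.0199 for Ttc13, -0.0658 to 0.0317 for Fam234b, -0.0533 to 0.0857 for Sort1 and -0.979 to 0.0717 for Gh.

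Other sign changes were few. With medians subtracted Gstt2 was -0.177 and Sort1 -0.206. After quantile normalization of all arrays Gstt2 was -0.104, Cstf2 0.00122 and Fam234b 0.108, and within tissues Gstt2 -0.0678 and Fam234b 0.0331. With the array median as a covariate Mir30e was -0.0232, A330023F24Rik -0.029, Aldh1l1 0.0145, Csnk1e -0.00358, Per2 -0.168 and Tmem97 0.0358. Besides these, 95 named genes lost their call and kept their sign. With the first principal component Zfp931 was 0.238, Hadh 0.0487, Hspb8 0.0121, Fosl2 -0.0374, Aspa 0.0791, Pgrmc1 0.012, Sort1 -0.0577 and Per2 -0.0609. A further 92 named genes lost their call and kept their sign. Fam234b was 0.0192 with the replicate block, 0.00215 with the tag digit and 0.00562 with array weights, Gstt2 -6.29e-05 with the tag digit, Ttc13 0.0518 with array weights, and Sort1 -0.0484 with the span trend removed, an alternative chosen after seeing the data.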

Other observations

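Brain and liver levels of 26 clock genes were compared across the 18 tags, as deviations from their group means. Pearson's r was above 0 for 13 of them, and 0 passed the permutation test after Benjamini-Hochberg adjustment over the 26. Klf9 had the smallest p, with r = 0.591 (permutation p = 0.00444, adjusted 0.115) and Spearman's rho = 0.664 (permutation p = 0.00189, adjusted 0.0491). Its r was 0.479 without the 2 tags farthest from the median.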
